A study of Mus musculus with 6 samples.

Results

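Type I interferon-stimulated genes are the genes that cells switch on after interferon alpha or beta binds its receptor. The group described here is a list of 40 mouse gene symbols, taken by name as well-known members of that response. The list was drawn up with earlier results of these data known, so that its shares are descriptions. Of the 40 symbols, 38 were found in the gene-name column of the count table of 35602 genes and in both single-library tables of 34714 genes. All 38 had enough counts to be tested, among 16269 genes tested in all. *Ifit3b* alone reached the filter on low counts only through the inhibitor-treated libraries, so that it could only be called higher. *Mx1* and *Mx2* matched no name and were not analysed here.

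Splenic CD4+ T cells of mice, labelled wild type for the libraries of the count table, were stimulated with antibodies to CD3 and CD28, which stand in for antigen, and RNA was sequenced from cells given MAPK13-IN-1, an inhibitor of the kinase Mapk13 (p38 delta), or its solvent DMSO. Replicates 2 and 3 of each group were prepared in the same way, and their labels put the addition of 17.1 µM inhibitor, or of DMSO, after day 1 of culture. The labels of the other DMSO library and inhibitor library, called the unnumbered pair here, give no dose and name a different, strand-keeping library kit. The series' design text states stimulation in the presence of inhibitor or DMSO for 72 h, so that the time under the inhibitor is not settled by the labels. The DMSO libraries held 26874805 and 28487403 counts and the MAPK13-IN-1 libraries 33854760 and 32617702 counts. The unnumbered pair has normalized values without a named unit, read here as FPKM (fragments normalized to transcript length and library size), and its depth is unknown. With 1 library a group, that pair entered no test and has no replicate check. Nothing in the labels says that the replicates came from separate cultures, so p-values measure the spread between these libraries, which may be technical.

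Interferon alpha and beta act through the receptor chains Ifnar1 and Ifnar2, whose kinases Jak1 and Tyk2 phosphorylate transcription factors, Stat2 among them. A complex that holds Stat2 and Irf9 then binds interferon-stimulated response elements in promoters. The induced proteins sense foreign nucleic acids, block the life cycle of viruses, or feed back on the pathway, and in T cells interferon also shapes survival and division.

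In the count table, 20 of the 38 listed genes were higher with MAPK13-IN-1 (52.6%), beside 31.5% of all genes tested. A gene was called where its p-value, from edgeR's quasi-likelihood test and adjusted over all genes tested by the Benjamini-Hochberg (BH) method, was under 0.05. Another 7 listed genes were lower (18.4%), beside 32.3% of all genes, and 11 did not pass the test. Of the 37 listed genes past the cutoff of the filter in all 4 libraries, which leaves out *Ifit3b*, 19 were higher (51.4%) and 7 lower (18.9%), with a median log2 fold change of 0.26, beside 29.6% and 35.0% of the 14130 such genes. A log2 fold change over 1 was reached by 10 of the higher genes, *Ifit3b* among them, beside 13.0% of all genes tested, and one under −1 by 2 of the lower genes, beside 10.4%. The median log2 fold change of the list was 0.33, with a range from −1.60 to 4.80, and the median of all genes tested was 0.01. The list did not move as a block: the PYHIN genes and *Ifit1*, *Ifit2* and *Ifit3* were higher, while *Irf7*, *Oas3*, *Usp18*, *Ifih1*, *Ddx58*, *Ifi35* and *Ifi27l2a* were lower. Summed over the 38 genes, the level was 1288 and 1277 CPM in the DMSO libraries and 1720 and 1634 CPM in the MAPK13-IN-1 libraries. CPM are counts brought to a common library size with edgeR's TMM factors. Single abundant genes weigh heavily in this sum. The mean of *Dtx3l* went from 171 to 344 CPM and that of *Samd9l* from 48.4 to 132 CPM, while 7 listed genes were lower and 11 did not pass.

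The unnumbered pair gave another picture for part of the list. There 36 of the 38 genes were higher in the MAPK13-IN-1 library than in the DMSO library, and *Ifit2* and *Ifit3b* were lower, beside 60.2% of all tested genes with values that had a log2 ratio above 0. On the scale of log2(FPKM + 1), which understates the change of genes with low values, 27 of the 38 had a log2 ratio over 0.5, beside 16.2% of the 15825 tested genes with values. None was under −0.5, beside 7.24% of those genes. The median log2 ratio was 0.82 for the list and 0.07 for all tested genes. The summed FPKM of the list was 448.8 in the DMSO library and 818.8 in the MAPK13-IN-1 library. Of the 27 genes called in the count table, 18 had the same direction in this pair, and all 7 called lower there had a log2 ratio above 0 here, beside 43.1% of all genes called lower. Over all called genes with a difference in the pair, the share with the same direction was 66.2%. The 18 listed genes with the same direction were all called higher. They were 18 of the 20 listed genes called higher, beside 75.3% of all genes called higher that had a log2 ratio above 0. Across the 38 listed genes, the Pearson correlation between the count-table log2 fold change and the pair's log2 ratio was −0.195. Library kit, batch and any difference in dose or timing cannot be told apart between the count table and the pair.

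**Figure D1:**
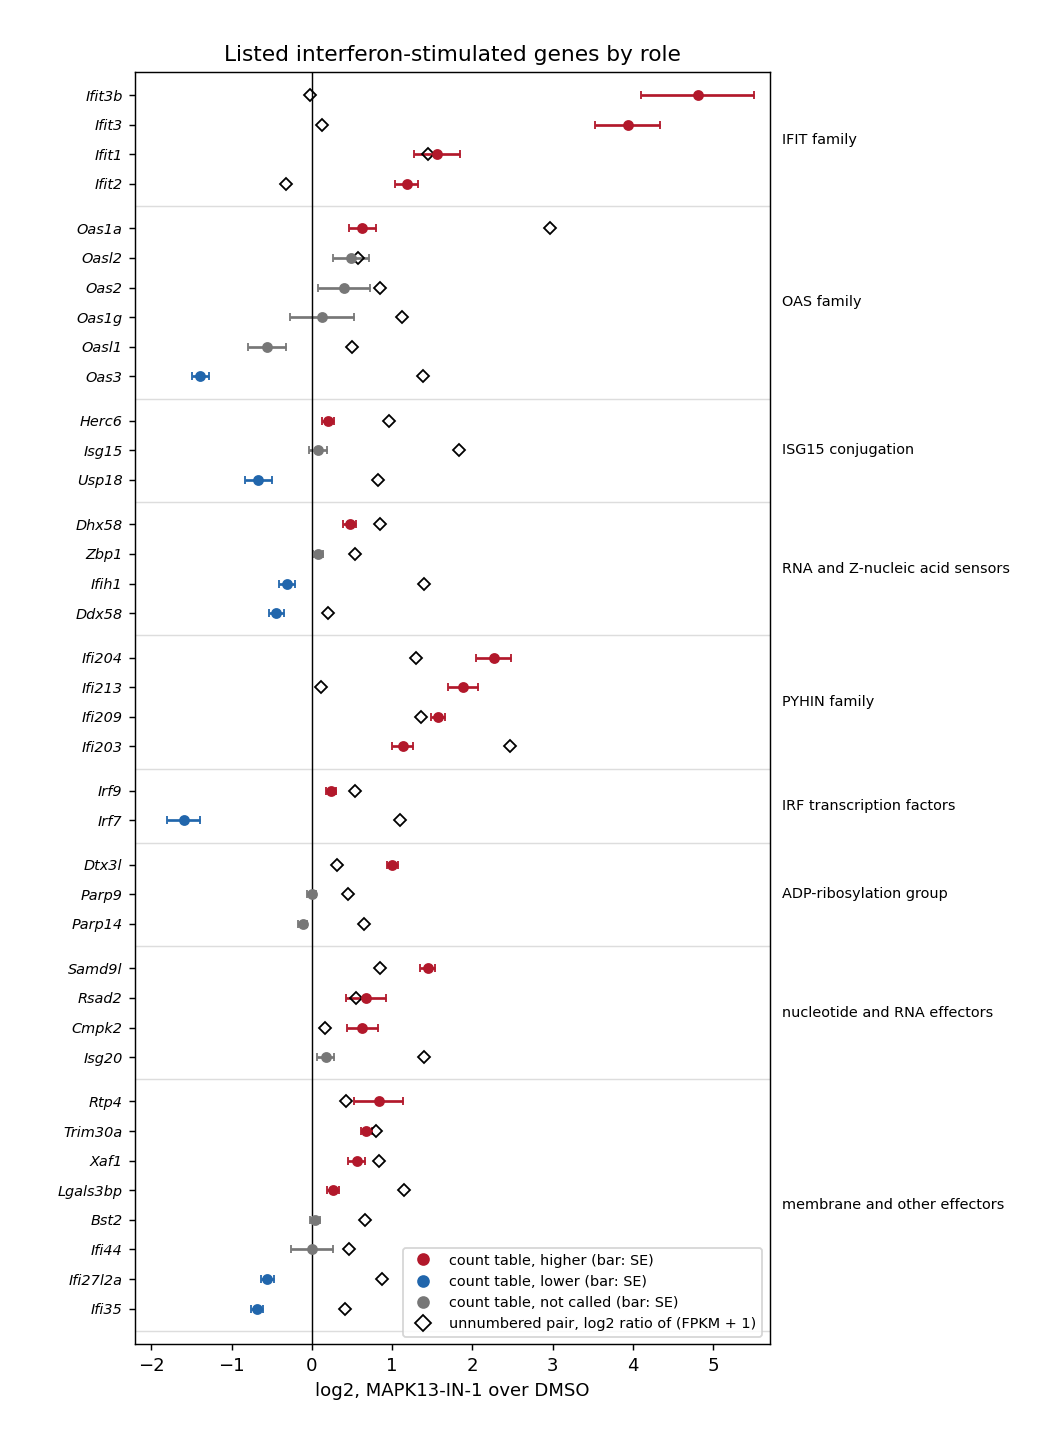
Log2 differences between MAPK13-IN-1 and DMSO for the 38 listed genes found, grouped by role. Circles are log2 fold changes from the count table (2 libraries a group) with bars of 1 SE, coloured by call at an adjusted p under 0.05 (*Ifit3b* could only be called higher), and diamonds are log2 ratios of FPKM + 1 in the unnumbered pair (1 library a group); *Ifit1*, *Ifit2*, *Ifit3* and the 4 PYHIN genes are called higher, and the 7 genes called lower all have a diamond above 0.

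By level in DMSO, and counting genes past the cutoff in all 4 libraries, 8 of the 13 listed genes with a DMSO mean under 5 CPM were higher and 0 were lower, beside 31.6% and 15% of all such genes in that class. From 5 to under 50 CPM, 7 of 15 were higher and 6 were lower, beside 29.1% and 39.5%. At 50 CPM or more, 4 of 9 were higher and 1 was lower, beside 28.7% and 45.8%. Differences between these classes were not tested. Between the inhibitor-treated replicates, 27 of the 38 listed genes had a higher level in replicate 2 than in replicate 3, beside 48.6% of all genes tested. Among the genes called higher these were 17 of 20 listed genes, beside 63.4% of all genes called higher.

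The cells carried CD4 T cell transcripts, and markers of other cells were present and differed between the groups. Counts of markers stand beside 31.5% higher and 32.3% lower of all genes tested. Of 9 CD4 T cell markers tested, 0 were higher and 8 were lower with MAPK13-IN-1 by the same edgeR test, with a summed level, scaled by library totals, of 2120 and 2165 CPM in DMSO and 1207 and 1366 CPM with the inhibitor. *Cd5* was the most abundant of them in DMSO and *Cd4* with the inhibitor, and *Cd4* had a log2 fold change of −0.00. In these bulk libraries, fewer cells of a type and less RNA per cell cannot be told apart. Of 10 B cell markers, 8 were higher and 1 was lower, with a summed 1069 and 1042 CPM in DMSO and 1368 and 1378 CPM with the inhibitor. *Pax5*, a transcription factor of the B lineage and the most abundant of them over the 4 libraries, had 4585 and 4580 counts in DMSO and 9332 and 9179 counts with the inhibitor. Of 5 macrophage and monocyte markers past the filter's cutoff in all 4 libraries, 5 were higher, beside 29.6% of all such genes. The whole list of 12 had a summed 73.0 and 66.5 CPM in DMSO and 116 and 114 CPM with the inhibitor, most of it *Mpeg1*. The macrophage markers *Vcam1*, *C1qa*, *C1qc* and *Mrc1* had 0 counts in both DMSO libraries and between 0 and 14 counts in the inhibitor-treated libraries.

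Plasmacytoid dendritic cells are known as strong producers of interferon alpha. Of 6 of their markers past the cutoff in all 4 libraries, 2 were higher and 2 were lower, beside 29.6% and 35.0% of all such genes. The whole list had a summed 246 and 236 CPM in DMSO and 319 and 300 CPM with the inhibitor. *Spib* was the most abundant in DMSO and *Tcf4*, which B cells also express, with the inhibitor. *Cox6a2* (401 and 428 counts to 50 and 48) and *Ly6d* (495 and 560 to 239 and 265) were the 2 lower ones, and the defining marker *Siglech* had 0 counts in both DMSO libraries and 6 and 2 counts in the inhibitor-treated libraries. Both CD8 T cell markers were lower, from a summed 11.2 and 10.4 CPM to 5.76 and 8.16 CPM. Of 2 NK cell markers tested 1 was higher and 0 were lower, from a summed 3.20 and 3.79 CPM to 5.35 and 4.78 CPM. Neutrophil markers were too scarce to be tested, at no more than 10 counts in any library. Erythroid markers were scarce in DMSO and had 5 of 7 higher and 1 lower, from a summed 10.1 and 9.76 CPM to 95.4 and 68.8 CPM, with *Epor* the most abundant in DMSO and *Hbb-bs* with the inhibitor.

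In the unnumbered pair the B cell markers summed to 49.0 (DMSO) and 36.9 (inhibitor) FPKM, the macrophage markers to 4.72 and 14.3 FPKM, the plasmacytoid markers to 29.8 and 19.5 FPKM (7.30 and 17.1 FPKM without *Cox6a2*), the NK cell markers to 1.08 and 5.39 FPKM, the CD8 T cell markers to 3.49 and 8.39 FPKM and the erythroid markers to 1.00 and 2.03 FPKM. The CD4 T cell markers summed there to 1259 and 1288 FPKM. Marker levels thus differed along with the listed genes. In the count table B cell, macrophage and erythroid sums were higher with the inhibitor and CD4 and CD8 T cell sums lower, also without any 1 gene of the list, while the plasmacytoid sum was higher only with *Tcf4* included (174.5 and 170.4 CPM to 157.0 and 157.2 CPM without it), and the NK cell sums overlapped without *Klrk1*. In the pair macrophage, NK cell, erythroid and CD8 T cell sums were higher and the B cell sum lower without any 1 gene as well, while the CD4 T cell sum was lower without *Thy1* (1167 and 1075 FPKM). The paper states that a commercial kit for mouse CD4 T cells was used to isolate the cells from the spleen. The part of other cells in the values below was not tested.

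The IFIT genes encode cytoplasmic proteins and lie side by side on chromosome 19. Of these proteins, Ifit1 binds foreign RNA whose cap lacks the host's methyl marks. The 3 past the filter's cutoff in all 4 libraries, *Ifit1*, *Ifit2* and *Ifit3*, were higher with MAPK13-IN-1 in the count table, beside 29.6% of all such genes, with a median log2 fold change of 1.56. *Ifit3* (chr19:34583531-34588731 in GENCODE M21, build GRCm38) had 20 and 13 counts with DMSO and 458 and 211 counts with the inhibitor. Its level was 0.626 ± 0.21 CPM with DMSO and 9.56 ± 4.72 CPM with the inhibitor (SD, n = 2), a log2 fold change of 3.93 (SE 0.405, BH-adjusted p = 1.38e-05, edgeR quasi-likelihood test). The groups were far apart, but the inhibitor-treated replicates differed between themselves, and without MAPK13-IN-1 replicate 2 the log2 fold change was 3.31. In the unnumbered pair *Ifit3* was at 0.344 (DMSO) and 0.470 (inhibitor) FPKM, so that the large difference of the count table was not seen there.

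*Ifit3b* (chr19:34607970-34613401), a near copy of *Ifit3*, had 4 and 0 counts with DMSO and 105 and 50 counts with the inhibitor. It entered the test only through the inhibitor-treated libraries, so its p-value is not given, and its fitted log2 fold change of 4.80 rests on a DMSO level close to nothing. Leaving out DMSO replicate 3 gave 3.80, and leaving out DMSO replicate 2 gave 9.16, a fit in which the remaining DMSO library had 0 counts and which gives no usable size. Values in the pair were 0.0423 and 0.0272 FPKM, near the bottom of the scale in both libraries. Of the 50-base stretches in the *Ifit3* transcripts of GENCODE M21, 51.2% also occur in *Ifit3b*, so that reads of these 2 genes could have been split between them, and how shared reads were counted is not given in the sources used here.

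*Ifit1* (chr19:34640871-34650009) had 53 and 37 counts with DMSO and 220 and 131 counts with the inhibitor. The log2 fold change was 1.56 (SE 0.287, BH-adjusted p = 0.000768, edgeR quasi-likelihood test). The unnumbered pair showed the same direction for this gene, with 0.352 FPKM in the DMSO library and 2.68 FPKM in the inhibitor library. *Ifit2* (chr19:34550694-34576419), the most abundant of the 4 per kilobase in DMSO at 2.02 CPM per kilobase of exon, had 184 and 238 counts with DMSO and 708 and 544 counts with the inhibitor. Its log2 fold change was 1.18 (SE 0.148, BH-adjusted p = 5.60e-05, edgeR quasi-likelihood test). The pair had the opposite order for *Ifit2*, at 4.60 (DMSO) and 3.47 (inhibitor) FPKM. In the pair only *Ifit1* of the IFIT genes had a log2 ratio over 0.5.

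PYHIN genes encode proteins with a DNA-binding domain, several of which act in the nucleus or sense DNA, and the mouse cluster lies on chromosome 1. The 4 listed PYHIN genes were all higher in the count table, beside 31.5% of all genes tested, with log2 fold changes from 1.13 to 2.26 and a median of 1.73. *Ifi209* (chr1:173630917-173647928) had 575 and 595 counts with DMSO and 2488 and 2072 counts with the inhibitor. Its level was 22.1 ± 0.297 CPM with DMSO and 65.6 ± 6.33 CPM with the inhibitor (SD, n = 2), a log2 fold change of 1.57 (SE 0.0898, BH-adjusted p = 2.80e-07, edgeR quasi-likelihood test). Both libraries of a group lay close together, and *Ifi209* had the smallest p-value of all listed genes. The pair showed 1.16 and 4.54 FPKM, in the same direction.

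*Ifi203* (chr1:173920407-173942672) had 545 and 621 counts with DMSO and 1956 and 1391 counts with the inhibitor, a log2 fold change of 1.13 (SE 0.13, BH-adjusted p = 3.02e-05, edgeR quasi-likelihood test). In the pair it stood at 0.695 and 8.33 FPKM, the highest log2 ratio of the PYHIN genes at 2.46. Its inhibitor-treated replicates were less alike than those of *Ifi209*. *Ifi204* (chr1:173747293-173766943), whose protein binds DNA in the cytoplasm and nucleus, had 36 and 47 counts with DMSO and 303 and 220 counts with the inhibitor. The log2 fold change was 2.26 (SE 0.220, BH-adjusted p = 9.08e-06, edgeR quasi-likelihood test), and the pair was at 0.325 and 2.27 FPKM. *Ifi213* (chr1:173566283-173599274) had 51 and 53 counts with DMSO and 273 and 231 counts with the inhibitor, a log2 fold change of 1.88 (SE 0.184, BH-adjusted p = 9.26e-06, edgeR quasi-likelihood test). In the pair *Ifi213* differed little, at 0.325 and 0.440 FPKM.

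These genes share sequence with their neighbours, which limits how far single members can be told apart. Of the 50-base stretches in their GENCODE M21 transcripts, 33.7% were also present in other genes for *Ifi209* (33.4% in *Ifi214*), 20.0% for *Ifi204* (14.8% in *Ifi211*), 15.6% for *Ifi213* (13.6% in *Ifi208*) and 12.4% for *Ifi203*. PYHIN relatives outside the 40 symbols, among the other interferon-stimulated genes examined for the pathway, were also higher in the count table. *Ifi207* had 27 and 17 counts with DMSO and 353 and 321 counts with the inhibitor, a log2 fold change of 3.54 (SE 0.227, BH-adjusted p = 5.62e-07, edgeR quasi-likelihood test). Chosen after their values were seen, *Ifi206*, *Ifi208*, *Ifi214* and *Mndal* had log2 fold changes of 1.66, 1.95, 2.26 and 1.16, and *Ifi208* alone of them was lower in the inhibitor library of the pair, at 0.314 and 0.216 FPKM.

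The oligoadenylate synthetases make a second messenger that activates the ribonuclease RNase L when double-stranded RNA is present, and the OAS-like proteins are their relatives. Of 6 tested, 1 was higher, 1 was lower and 4 did not pass, beside 31.5% higher and 32.3% lower of all genes tested. *Oas3* (chr5:120753098-120777661) had 784 and 848 counts with DMSO and 396 and 420 counts with the inhibitor. Its level was 30.8 ± 0.550 CPM with DMSO and 11.8 ± 0.874 CPM with the inhibitor (SD, n = 2), a log2 fold change of −1.39 (SE 0.102, BH-adjusted p = 1.31e-06, edgeR quasi-likelihood test). The groups did not overlap. In the unnumbered pair the order was the opposite, with 2.95 FPKM in the DMSO library and 9.34 FPKM in the inhibitor library.

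*Oas1a* had 135 and 112 counts with DMSO and 248 and 252 counts with the inhibitor, a log2 fold change of 0.63 (SE 0.168, BH-adjusted p = 0.00782, edgeR quasi-likelihood test). The call was lost without DMSO replicate 3, where the log2 fold change was 0.45. In the pair *Oas1a* went from 2.42 to 25.8 FPKM, the highest log2 ratio of the list with a pseudocount of 1, at 2.97. With a pseudocount of 0.1 *Ifi203* was the highest, at 3.41 beside 3.36 for *Oas1a*. Its transcripts share 57.6% of their 50-base stretches with *Oas1g*, which had between 18 and 35 counts per library and a log2 fold change of 0.12. The *Oas1g* value turned in sign without DMSO replicate 3 (−0.059) and without MAPK13-IN-1 replicate 3 (−0.29). *Oas2*, *Oasl1* and *Oasl2* had log2 fold changes of 0.40, −0.56 and 0.49 and did not pass the test. *Oasl1* passed as lower without the filter (−0.56), without DMSO replicate 3 (−0.74) and without MAPK13-IN-1 replicate 2 (−0.64), and *Oasl2* as higher with upper-quartile factors (0.57), with library totals (0.61) and without MAPK13-IN-1 replicate 3 (0.59). All 6 genes of the family were higher in the inhibitor library of the pair, with log2 ratios from 0.50 to 2.97.

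Isg15 is a small ubiquitin-like protein that is attached to other proteins, Herc6 attaches it in mice, and Usp18 removes it and damps the interferon receptor. *Isg15* had 477 and 465 counts with DMSO and 713 and 586 counts with the inhibitor, which the larger totals of the latter bring to 17.8 ± 0.989 and 18.7 ± 1.98 CPM (SD, n = 2). The log2 fold change of 0.07 did not pass (BH-adjusted p = 0.595, edgeR quasi-likelihood test). In the pair *Isg15* was at 9.47 (DMSO) and 36.3 (inhibitor) FPKM. A common marker of interferon exposure was thus level in the count table and 3.84-fold higher in the pair.

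*Usp18* (chr6:121245906-121270917) had 158 and 186 counts with DMSO and 157 and 127 counts with the inhibitor, a log2 fold change of −0.67 (SE 0.170, BH-adjusted p = 0.00592, edgeR quasi-likelihood test). The order was reversed in the pair, at 6.54 and 12.4 FPKM. *Herc6* had a log2 fold change of 0.20, a call that was lost with DESeq2, without the filter on low counts, and without DMSO replicate 2 (0.19), DMSO replicate 3 (0.20) or MAPK13-IN-1 replicate 2 (0.17).

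Of the 4 sensors of foreign nucleic acid, 1 was higher, 2 were lower and 1 did not pass, beside 31.5% higher and 32.3% lower of all genes tested. *Ifih1* and *Ddx58* encode helicases that detect double-stranded RNA and signal through Mavs. *Ddx58* (chr4:40203773-40239828) had 792 and 806 counts with DMSO and 816 and 727 counts with the inhibitor, a log2 fold change of −0.44 (SE 0.0905, BH-adjusted p = 0.00159, edgeR quasi-likelihood test). *Ifih1* (chr2:62595798-62646255) had 624 and 739 counts with DMSO and 751 and 687 counts with the inhibitor, a log2 fold change of −0.31 (SE 0.0987, BH-adjusted p = 0.0182, edgeR quasi-likelihood test). The smaller of these 2 differences, that of *Ifih1*, lost its call with upper-quartile factors (−0.23) and with library totals (−0.19). The *Ifih1* call was also lost with DESeq2 (−0.30) and without DMSO replicate 3 (−0.23). Both genes were higher in the inhibitor library of the pair, from 4.08 to 12.3 FPKM for *Ifih1* and from 4.88 to 5.75 FPKM for *Ddx58*.

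*Dhx58*, which encodes a helicase that modulates the other 2, had the opposite sign in the count table, with a log2 fold change of 0.47 (SE 0.0852, BH-adjusted p = 0.000703, edgeR quasi-likelihood test). *Zbp1* (chr2:173206612-173218923), a sensor of Z-form nucleic acids that can start necroptosis, had 2440 and 2618 counts with DMSO and 3484 and 3474 counts with the inhibitor. Its levels were 95.4 ± 1.16 and 100.3 ± 3.08 CPM (SD, n = 2) and its log2 fold change of 0.07 did not pass (BH-adjusted p = 0.325, edgeR quasi-likelihood test). It passed with upper-quartile factors (0.15) and with library totals (0.20). In the pair *Zbp1* was at 52.4 and 76.1 FPKM.

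Irf7 is the transcription factor that amplifies interferon alpha production, and Irf9 is the DNA-binding part of the complex that also holds Stat2. *Irf7* (chr7:141262706-141266481) had 147 and 172 counts with DMSO and 81 and 57 counts with the inhibitor. Its level was 6.01 ± 0.441 CPM with DMSO and 1.98 ± 0.424 CPM with the inhibitor (SD, n = 2), a log2 fold change of −1.60 (SE 0.209, BH-adjusted p = 7.67e-05, edgeR quasi-likelihood test). This was the lowest log2 fold change of the list, and all inhibitor-treated values lay under all DMSO values. The pair had the other order, at 2.38 (DMSO) and 6.22 (inhibitor) FPKM. *Irf9* rose slightly, with a log2 fold change of 0.24 and 20.1 and 29.4 FPKM in the pair. Its call was lost without DMSO replicate 2 (0.24) and without DMSO replicate 3 (0.21).

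Parp9 and Parp14 belong to the ADP-ribosyltransferase family, and Dtx3l is a ubiquitin ligase that works as a partner of Parp9. *Dtx3l* (chr16:35926511-35939151) had 4445 and 4638 counts with DMSO and 12850 and 11030 counts with the inhibitor. Its level was 171 ± 1.3 CPM with DMSO and 344 ± 25.8 CPM with the inhibitor (SD, n = 2), a log2 fold change of 1.00 (SE 0.0626, BH-adjusted p = 4.69e-07, edgeR quasi-likelihood test). *Parp9* (chr16:35938470-35972605) had 3101 and 3357 counts with DMSO and 4368 and 4068 counts with the inhibitor, and its log2 fold change was −0.00 (SE 0.0584, BH-adjusted p = 0.964, edgeR quasi-likelihood test). The sign of the *Parp9* value, close to 0, turned with the scaling, but no setting made it pass.

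The 2 genes lie head to head on opposite strands, and their GENCODE M21 models overlap by 682 bases at the 5′ ends. The ratio of *Dtx3l* to *Parp9* counts was 1.43 and 1.38 in the DMSO libraries and 2.94 and 2.71 in the MAPK13-IN-1 libraries. In the unnumbered pair it was 0.882 with DMSO and 0.801 with the inhibitor, as a ratio of FPKM, so that the shift within this gene pair was seen in the count table alone. Reads from the overlap cannot be assigned without strand, and 6.89% of the 50-base stretches of *Dtx3l* occur in *Parp9* transcripts. *Parp14* (chr16:35832874-35871544), at 3570 and 3684 counts with DMSO and 4484 and 4297 counts with the inhibitor, had a log2 fold change of −0.11 and did not pass (BH-adjusted p = 0.104, edgeR quasi-likelihood test), but passed without MAPK13-IN-1 replicate 3 (−0.12). The pair gave 18.8 and 23.7 FPKM for *Dtx3l*, 21.4 and 29.6 FPKM for *Parp9* and 14.8 and 23.7 FPKM for *Parp14*.

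**Figure D2:**
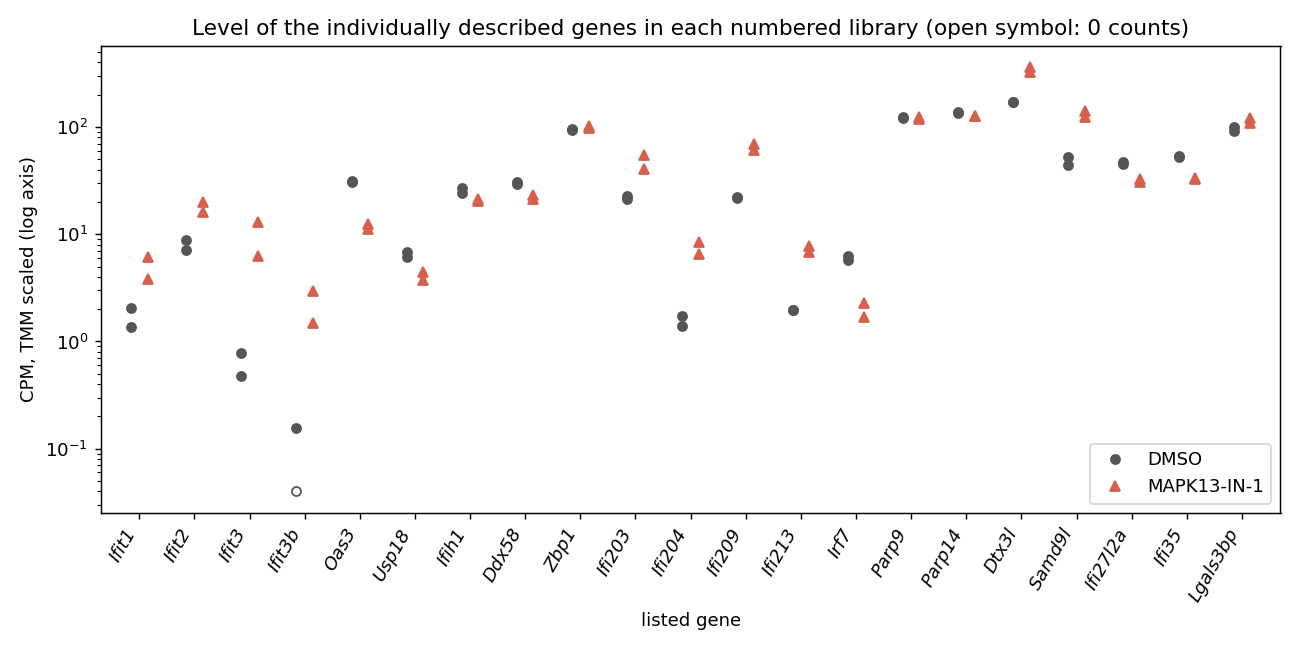
TMM-scaled CPM on a log axis in each library of the count table for the 21 listed genes described individually, with circles for DMSO replicates 2 and 3, triangles for MAPK13-IN-1 replicates 2 and 3 and an open symbol for the library with 0 counts, drawn at an arbitrary height. The symbols of the 2 groups are apart for *Ifit3*, *Ifi209*, *Dtx3l*, *Oas3* and *Irf7*, and lie at about the same height for *Parp9* and *Zbp1*.

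Samd9l is a cytoplasmic protein that restrains cell growth and virus replication. *Samd9l* (chr6:3372257-3399572) had 1361 and 1201 counts with DMSO and 4988 and 4160 counts with the inhibitor, a log2 fold change of 1.44 (SE 0.0946, BH-adjusted p = 6.55e-07, edgeR quasi-likelihood test). It was higher in the pair as well, at 1.39 and 3.29 FPKM. *Rsad2* (viperin), which makes a chain-ending nucleotide, and its neighbour *Cmpk2*, a nucleotide kinase, had log2 fold changes of 0.68 and 0.63 on 36 to 153 counts per library. Both calls were lost with DESeq2 and without DMSO replicate 3 (0.69 and 0.56), and that of *Rsad2* also without DMSO replicate 2 (0.64) or MAPK13-IN-1 replicate 2 (0.64). *Isg20*, an RNA exonuclease, did not pass with a log2 fold change of 0.17, but passed without MAPK13-IN-1 replicate 2 (0.32), with upper-quartile factors (0.25) and with library totals (0.30).

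Of the 8 remaining genes, a mixed group of membrane and other effectors, 4 were higher, 2 were lower and 2 did not pass, beside 31.5% higher and 32.3% lower of all genes tested. *Ifi35* (chr11:101448407-101458698), whose protein pairs with Nmi, had 1390 and 1425 counts with DMSO and 1190 and 1115 counts with the inhibitor. Its log2 fold change was −0.68 (SE 0.0750, BH-adjusted p = 2.31e-05, edgeR quasi-likelihood test), and the pair was at 40.9 and 55.0 FPKM. *Ifi27l2a* (chr12:103442167-103443680), a small membrane protein gene, had the highest level of the list per kilobase of exon in DMSO, 100.3 CPM per kilobase. It had 1229 and 1230 counts with DMSO and 1088 and 1100 counts with the inhibitor, a log2 fold change of −0.56 (SE 0.0804, BH-adjusted p = 0.000149, edgeR quasi-likelihood test). The FPKM values, 129.7 with DMSO and 238.9 with the inhibitor, were the highest of the list too and went the other way.

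*Bst2* (tetherin), which holds budding viruses at the cell surface, did not pass, with 68.8 ± 1.49 and 70.7 ± 1.77 CPM (SD, n = 2) and 47.7 and 75.9 FPKM in the pair, but passed with library totals (0.16). *Lgals3bp* (chr11:118392751-118402092), a secreted glycoprotein that binds a galectin, had 2368 and 2713 counts with DMSO and 3856 and 4090 counts with the inhibitor. The log2 fold change was 0.26 (SE 0.0727, BH-adjusted p = 0.00975, edgeR quasi-likelihood test), the call was lost without DMSO replicate 2 (0.19), and the pair was at 30.5 and 68.6 FPKM. *Trim30a*, a ubiquitin ligase that restrains Toll-like receptor signalling, *Xaf1*, which counters an inhibitor of cell death, and *Rtp4*, a chaperone of membrane receptors, had log2 fold changes of 0.68, 0.56 and 0.83. *Rtp4*, on 22 to 68 counts per library, lost its call with DESeq2 and in 3 of the 4 fits without a library. *Ifi44* had a log2 fold change of 0.00 on 40 to 64 counts per library and did not pass. In the pair all 8 genes of this group were higher with the inhibitor, with log2 ratios from 0.42 to 1.14.

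The other genes of the pathway were examined by their step. Of 21 interferon genes, 13 had 0 counts in all 4 libraries of the count table and 17 had at most 3 counts in each, *Ifnb1* among them with 2, 0, 0 and 0 counts. *Ifng*, the type II interferon gene whose product induces many of the same targets, had 106 and 145 counts with DMSO and 74 and 86 counts with the inhibitor. Its log2 fold change was −1.03 (SE 0.218, BH-adjusted p = 0.00188, edgeR quasi-likelihood test). In the unnumbered pair *Ifng* had the other order, at 16.4 (DMSO) and 92.6 (inhibitor) FPKM. *Ifnz*, a type I gene, had 5 and 6 counts with DMSO and 38 and 18 counts with the inhibitor, reached the filter only through the latter, and was at 0.0298 and 0.178 FPKM in the pair. *Ifng* was thus lower in the count table and higher in the pair, as were the 7 listed genes called lower. The 20 listed genes called higher differed from *Ifng* in direction in the count table. In the pair 36 of the 38 listed genes were higher, whatever their call. The part of *Ifng* in these values was not tested.

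Of 7 receptor and JAK-STAT genes, 4 were higher, 1 was lower and 2 did not pass, beside 31.5% and 32.3% of all genes tested, with a median log2 fold change of 0.22. *Jak1* was the most abundant, with 8612 and 8907 counts in DMSO and 18681 and 15960 counts with the inhibitor, a log2 fold change of 0.59 (SE 0.0610, BH-adjusted p = 1.37e-05, edgeR quasi-likelihood test). It was at 46.2 and 57.5 FPKM in the pair. *Stat2*, with 2574 and 2840 counts in DMSO and 4340 and 4194 counts with the inhibitor, had a log2 fold change of 0.27 and was at 15.2 and 24.1 FPKM in the pair. The receptor chain *Ifnar1* had 1788 and 1911 counts in DMSO and 2923 and 2714 counts with the inhibitor, a log2 fold change of 0.22, and 12.4 and 20.1 FPKM in the pair. *Ifnar2* had 632 and 694 counts in DMSO and 1539 and 1142 counts with the inhibitor, a log2 fold change of 0.62, but was lower in the pair, at 17.70 and 14.97 FPKM. *Tyk2* was lower, at −0.65, on 3189 and 3214 counts with DMSO and 2413 and 2904 counts with the inhibitor, but stood at 19.0 and 35.1 FPKM in the pair. The interferon gamma receptor genes *Ifngr1* (1083 and 1113 counts in DMSO, 1782 and 1430 with the inhibitor) and *Ifngr2* (1077 and 1101, then 1247 and 1277) had log2 fold changes of 0.16 and −0.18 and did not pass, and were at 15.3 and 25.8 FPKM and at 13.5 and 13.4 FPKM in the pair. The genes of the receptor and its kinases were therefore expressed in all libraries of the count table.

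Of 12 genes that lead to interferon production and were past the filter's cutoff in all 4 libraries, 5 were higher and 3 were lower, beside 29.6% and 35.0% of all such genes, with a median of 0.08. *Tlr3*, with 2 and 0 counts in DMSO and 16 and 17 counts with the inhibitor, was not past it. The kinase gene *Tbk1* (0.72), the DNA-sensing adaptor gene *Sting1* (0.46) and the Toll-like receptor adaptor gene *Ticam1* (0.64) were higher, and the kinase gene *Ikbke* (−0.67) and the transcription factor gene *Irf3* (−0.38) were lower. Of 13 genes that restrain the pathway or keep self nucleic acids from starting it, 2 were higher and 5 were lower, with a median of −0.14, beside 31.5% and 32.3% of all genes tested. *Socs1*, a feedback inhibitor of JAK kinases that interferons induce, had 2390 and 2800 counts with DMSO and 1251 and 1347 counts with the inhibitor. Its log2 fold change was −1.38 (SE 0.0836, BH-adjusted p = 3.88e-07, edgeR quasi-likelihood test), while the pair was at 71.9 and 79.1 FPKM. The RNase H2 subunit genes *Rnaseh2c* (−1.32) and *Rnaseh2a* (−0.52) and the RNA-editing enzyme gene *Adar* (−0.42) were lower, and *Pias1* (0.46) was higher.

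Of 51 other interferon-stimulated genes outside the 40 symbols, 19 were higher and 12 were lower, beside 31.5% and 32.3% of all genes tested, with a median of 0.08. *Gbp2*, a GTPase gene that interferon gamma induces strongly, was the most abundant, with a log2 fold change of −0.23. The 5 genes of this list with the smallest p-values were *Ifi207*, described above, the nuclear body gene *Sp100* (1.00), *Ms4a4b* (1.36), the GTPase gene *Gbp3* (0.83) and *Ms4a6b* (−1.08). With genes that stand in more than 1 of these lists counted once, the pathway genes beyond the 40 symbols past the cutoff in all 4 libraries, 82 in all, counted 29 higher (35.4%) and 21 lower (25.6%), beside 29.6% and 35.0%.

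Promoter sequences from RefSeq (build GRCm38.p6), reaching from 250 bases before to 50 bases after the start of the gene, were found for 29 of the 40 symbols. *Oas2*, *Mx1*, *Mx2*, *Usp18*, *Dhx58*, *Zbp1*, *Ifi204*, *Parp9*, *Parp14*, *Ifi27l2a* and *Rtp4* had no entry. Both strands were searched for the core of the interferon-stimulated response element, GAAANNGAAA (TTTCNNTTTC on the other strand), and for the gamma-activated site, TTCNNNGAA, which reads the same on both strands. The core was present for 14 of the 29 genes (48.3%), and for 1079 of all 27025 genes with a promoter (3.99%). Counted by promoter, since some genes have several, 3.44% of all 32851 promoters held it. The gamma-activated site was present for 5 of the 29 genes (17.2%) and for 9.55% of all genes, or 8.30% of all promoters. Among listed genes called higher, 8 of 17 had the core, among those called lower 3 of 5, and among those that did not pass 3 of 7. The 8 include *Ifit3b*, which could only be called higher. Of the genes called lower, *Ifih1* and *Ddx58* had their cores after the start and *Oas3* before it. Genes with the core thus occurred in each of the 3 classes, and such matches describe letters in a window, not binding.

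The stretches around the cores upstream of the start are shown for genes that behaved differently in the count table, so that the shared letters can be compared. The sequences are written along the strand of the gene, with the core in capitals and overlapping cores run together. *Ifit1*, *Ifit3* and *Ifit3b*, all called higher, each have 2 cores on the reverse strand, and the windows of *Ifit3* and *Ifit3b* are identical. They lie at chr19:34640773-34640825, chr19:34583361-34583428 and chr19:34607757-34607824 on the plus strand, ending 64, 101 and 133 bases before the start.
Ifit1: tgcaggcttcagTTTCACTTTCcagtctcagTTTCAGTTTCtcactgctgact
Ifit3: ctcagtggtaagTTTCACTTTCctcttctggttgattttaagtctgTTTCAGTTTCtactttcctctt
Ifit3b: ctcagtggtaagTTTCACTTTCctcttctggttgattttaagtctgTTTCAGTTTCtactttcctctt

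*Ifi213* and *Ifi203*, also called higher, have the same core and share the 9 bases that follow it, at chr1:173599324-173599357 and, for 1 of the 2 promoter entries of *Ifi203*, at chr1:173942506-173942539, both on the minus strand. *Ifi209*, called higher too, had neither motif in its window.
Ifi213: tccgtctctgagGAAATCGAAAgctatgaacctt
Ifi203: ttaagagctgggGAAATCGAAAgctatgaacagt

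*Oas3*, called lower, has 1 core at chr5:120777713-120777746, and *Oas1a*, called higher, has 2 overlapping cores within 32 bases of the start at chr5:120907526-120907557, both genes on the minus strand. *Isg15* and *Bst2*, which did not pass the test, have 3 and 2 overlapping cores at chr4:156200863-156200908 and chr8:71537575-71537614, both on the minus strand. In *Bst2* a gamma-activated site overlaps the start of the upstream core. *Irf7*, *Dtx3l* and *Samd9l*, with log2 fold changes of −1.60, 1.00 and 1.44, had neither motif in their windows.
Oas3: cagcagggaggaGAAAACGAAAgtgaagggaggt
Oas1a: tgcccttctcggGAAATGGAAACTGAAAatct
Isg15: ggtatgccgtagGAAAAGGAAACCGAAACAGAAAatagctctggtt
Bst2: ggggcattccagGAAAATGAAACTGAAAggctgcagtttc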

How the data were processed

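RNA-seq values of 6 libraries were used, grouped by the sample labels. For replicates 2 and 3 the authors deposited raw counts per gene, made beforehand from cleaned and aligned reads; the submitters' processing notes name fastp 0.21.0, HISAT2 2.1.0, StringTie 2.1.5 and build mm10. For the unnumbered pair the authors deposited 1 value per gene, read as FPKM, that is normalized by the authors for transcript length and library size after alignment. They name no unit, and FPKM is inferred: the values are fractional and sum to 405150 and 390729. The annotation and the treatment of shared reads are not given in the sources used here.

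Counts were fitted in R 4.3.3 with edgeR 4.0.16 (filterByExpr with a minimum count of 10 and a minimum total of 15, TMM scaling, quasi-likelihood test, Benjamini-Hochberg adjustment over all 16269 genes tested), without a covariate, and the code was tested on simulated data. TMM factors were 0.960 and 0.955 for DMSO and 1.05 and 1.04 for MAPK13-IN-1. Replicates differed beyond sampling noise (mean chi-square per gene 2.98 for DMSO and 9.65 for MAPK13-IN-1) and were counted separately. Summed marker levels were scaled by library totals. Values of the unnumbered pair were compared as log2 ratios with a pseudocount of 1, with no test. Gene positions, exon lengths and 50-base stretches came from GENCODE M21.

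The members, lists and markers were chosen with earlier results of these data known. Described sample by sample were the 12 called listed genes past 1 in absolute log2 fold change, the 5 with the highest mean DMSO level, and the 9 called genes with the other sign in the unnumbered pair, 21 in all. From the pathway lists these were receptor and JAK-STAT genes and ligands with over 10 counts in a library, and at most 5 genes a list with the smallest p-value were named, most by fold change alone; 1 gene is not reported here. *Oas1a*, *Isg15*, *Dhx58* and *Bst2* were added after their values were seen. Unmatched symbols besides *Mx1* and *Mx2* were *Pyhin1*, *Mnda* and *Oas1b* of the pathway lists and *Trac*, *Trbc1*, *Trbc2*, *Ighm* and *Ighd* of the markers. Alternatives were RLE, upper-quartile and library-total scaling, no filter, at least 10 counts in every library, DESeq2 1.42.0, the replicate number as a block, each library left out, and for the pair a pseudocount of 0.1 or only genes at 1 FPKM or more.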

Additional observations from a re-analysis of the deposited data

How the results depend on the processing

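The count of listed genes called higher stayed between 14 and 24 over the 11 alternatives to the count analysis, and the count called lower between 6 and 8, each within 1.5 times the values of 20 and 7. Leaving out each library in turn gave 14 to 21 higher, 7 to 8 lower and a median log2 fold change of 0.27 to 0.41. The same fits called 4298 to 5268 genes higher and 4433 to 5675 lower over all genes tested, and 24 to 38 higher and 18 to 24 lower among the other pathway genes. The main fit called 31 higher and 21 lower among the other pathway genes tested, with those not past the cutoff in all 4 libraries included. A fit that leaves 1 library in a group assumes that this library varies like those of the other group. The median of the list moved from 0.33 to 0.41 with upper-quartile factors and to 0.45 with library totals. These scalings also raised the median of all genes, from 0.01 to 0.09 and 0.14, and it was 0.16 without the filter on low counts, so that changes are relative to the scaling. For the unnumbered pair the list's median log2 ratio was 1.09 with a pseudocount of 0.1 and 0.84 over the 24 listed genes at 1 FPKM or more in both libraries, beside 0.82.

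With the replicate number as a block (replicate block, a paired fit), 20 listed genes were higher and 7 lower, the median was 0.34, and 10645 genes were called in all. The labels' numbers are not stated to mark a shared culture, and deviations of same-numbered libraries did not correlate (r = 0.0050 over genes), so the block is given only for its effect on the counts.

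For the 21 genes described individually, 214 of 230 alternative values kept their direction and side of the threshold, 5 were weaker, 3 stronger and 8 turned in sign. All 8 concern genes that did not pass: *Parp9* was at 0.0106 with RLE factors and with DESeq2, 0.0773 with upper-quartile factors, 0.122 with library totals, 0.0417 with at least 10 counts in every library, 0.0068 without DMSO replicate 3 and 0.0075 without MAPK13-IN-1 replicate 3, within a range of −0.0352 to 0.0075 over the fits without a library, and *Parp14* was at 0.0112 with library totals. Of the other listed genes, *Isg15* turned to −0.041 without MAPK13-IN-1 replicate 2. *Oas1g* turned to −0.059 without DMSO replicate 3 and to −0.29 without MAPK13-IN-1 replicate 3. *Ifi44* turned to −0.0009 without the filter and −0.0041 with the replicate block. It was also at −0.088 without DMSO replicate 2 and −0.15 without MAPK13-IN-1 replicate 2. None of these genes passed in the main fit. The cause of these turns was not tested. *Ifit3b* was not tested when every library needed at least 10 counts. Under 100 counts were available for 13 listed genes in each DMSO library, which limits the precision of their fold changes, and the unknown depth of the unnumbered pair gives its values no counting error.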
